A study of Mus musculus with 6 samples.

Results

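Fragments of the 4 noncoding RNAs Rny1, Rny3, Vaultrc5 and Rn7sk were counted in small RNA sequencing of J1 cells, a line of mouse embryonic stem cells. Rny1 and Rny3 are the mouse Y RNAs, Vaultrc5 is the RNA of the vault particle and Rn7sk is the 7SK RNA. A sequenced small RNA, called a tag here, was counted for one of them when its 18 to 44 bases matched the annotated transcript exactly and on the sense strand. This gave 1770 distinct tags, 248 from Rny1, 192 from Rny3, 199 from Vaultrc5 and 1131 from Rn7sk, out of 754130 to 1052307 distinct tags of any origin in a library. The 4 genes are among 3398 annotated small noncoding RNA genes with a tag in the same files.

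The cells were grown without feeders on gelatin and in leukemia inhibitory factor (1000 U/ml), which keeps mouse embryonic stem cells undifferentiated, and every group carried this background. For 24 h they received 1 µM retinoic acid, which induces differentiation, 1 µM BIO or 3 µM CHIR99021, both inhibitors of the kinase GSK3, or 1 µL of the solvent DMSO. Vitamin C at 50 µg/ml, a cofactor of dioxygenases, was set against 1 µL of ddH2O. There were 6 libraries, 1 per group, so no p-value was possible, and no interval holds the spread between cultures or between preparations. All intervals are 95% exact Clopper-Pearson intervals, or for ratios the conditional binomial form of the same method. They cover the counting error of reads only. Without molecular identifiers several reads can come from 1 molecule, so the intervals can be too narrow even for the counting of molecules. The comparisons with DMSO share that library and are given side by side.

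Y RNAs are transcribed by RNA polymerase III. Their 5′ and 3′ ends pair into a long stem, to which the protein Ro60 binds, while the 3′ end holds the site of the La protein, and fragments of both arms of the stem are known from many cells. Vault RNA is a further polymerase III transcript that sits in the vault ribonucleoprotein particle, and 7SK RNA, also made by polymerase III, holds the transcription elongation factor P-TEFb in an inactive complex with Hexim and Larp7.

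In GENCODE M21 on GRCm38, Rny1 has 112 bases at chr6:47788069-47788180 (minus strand) and Rny3 has 102 bases at chr6:47781624-47781725 (plus strand). Rn7sk has 331 bases at chr9:78175303-78175633 (minus strand). These, like Vaultrc5, are each annotated as a single exon of a noncoding gene. The transcripts of both Y RNAs are printed here 5′ to 3′ because the results turn on their ends. Capitals mark the leading fragments, bases 1 to 30 and 84 to 110 of Rny1 and bases 1 to 24 of Rny3.
Rny1: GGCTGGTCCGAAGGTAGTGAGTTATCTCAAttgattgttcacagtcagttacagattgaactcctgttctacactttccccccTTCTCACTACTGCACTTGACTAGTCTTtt
Rny3: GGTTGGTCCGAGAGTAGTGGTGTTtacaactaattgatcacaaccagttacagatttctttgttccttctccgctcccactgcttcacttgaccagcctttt

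The next lines give the fragments whose levels are described singly, with capitals for the bases that are paired in the minimum free energy fold of the whole transcript. The first pair come from the 5′ end of Rny1, the next 3 from its 3′ arm and the last from the 5′ end of Rny3.
Rny1 bases 1 to 23: GGCTGGTCcgaaGGTAGTGAGtt
Rny1 bases 1 to 30: GGCTGGTCcgaaGGTAGTGAGttATCTcAA
Rny1 bases 84 to 105: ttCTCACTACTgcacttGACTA
Rny1 bases 84 to 106: ttCTCACTACTgcacttGACTAG
Rny1 bases 84 to 110: ttCTCACTACTgcacttGACTAGTCtt
Rny3 bases 1 to 24: GGTTGGTCcGAGAGTAGTGGtGTt
Among Rny1 tags, bases 83 to 106 and bases 1 to 31 were also more abundant over the 6 libraries than bases 1 to 23, and differ from the printed forms by 1 base at an end. In the predicted fold, 17 base pairs join bases 1 to 30 of Rny1 to bases 84 to 110. In Rny3, 21 pairs join bases 1 to 24 to bases 73 to 102. The first 24 bases of both Y RNAs are identical at 17 positions, and 0 tags matched both.

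The libraries differed in ways that touch these fragments. They held 18870345 to 23758363 tags, and 3 counts, the floor used for a count of 0, correspond to 0.126 to 0.159 CPM. CPM is the count scaled to 1000000 tags of the library, of any length and origin, and all levels are given in it. Tags of 29 to 31 bases made up 0.564% of tags after retinoic acid, 8.86% after BIO, 2.31% after CHIR99021 and 3.27% in DMSO. They made up 1.23% after vitamin C and 6.475% in ddH2O. MicroRNA tags made up 3.77% of the retinoic acid library and 6.02 to 11.4% of the others. The stem cell cluster miR-290-295 was present in all 6 libraries and held 16.8% of the microRNA tags after retinoic acid and 27.3 to 34.2% in the others. The liver microRNA miR-122 was at 79.7 CPM in CHIR99021 and 2.06 to 2.91 in the others. Of the other markers counted, miR-302 held 0.0108% of the microRNA tags after retinoic acid and 0.00902 to 0.0274% in the others. Among those of differentiated cells, let-7 held 8.94% against 7.25 to 9.76%, and miR-124 0.0950% against 0.225 to 0.556%. MiR-1a held 0.625% against 0.0579 to 0.281%, and miR-142 0.00903% against 0.0141 to 0.0197%. In bulk cells, fewer cells of a type and less RNA per cell cannot be told apart.

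The 4 RNAs together gave 0.108% of the tags after retinoic acid, 0.156% after BIO, 0.0881% after CHIR99021 and 0.178% in DMSO, and 0.0999% after vitamin C and 0.105% in ddH2O. Rny1 gave most of them in every library, with 14388 to 28132 tags. Tags on the antisense strand numbered 0 for Rny1, Rny3 and Rn7sk in all 6 libraries, and 1 for Vaultrc5, in CHIR99021.

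**Figure D1:**
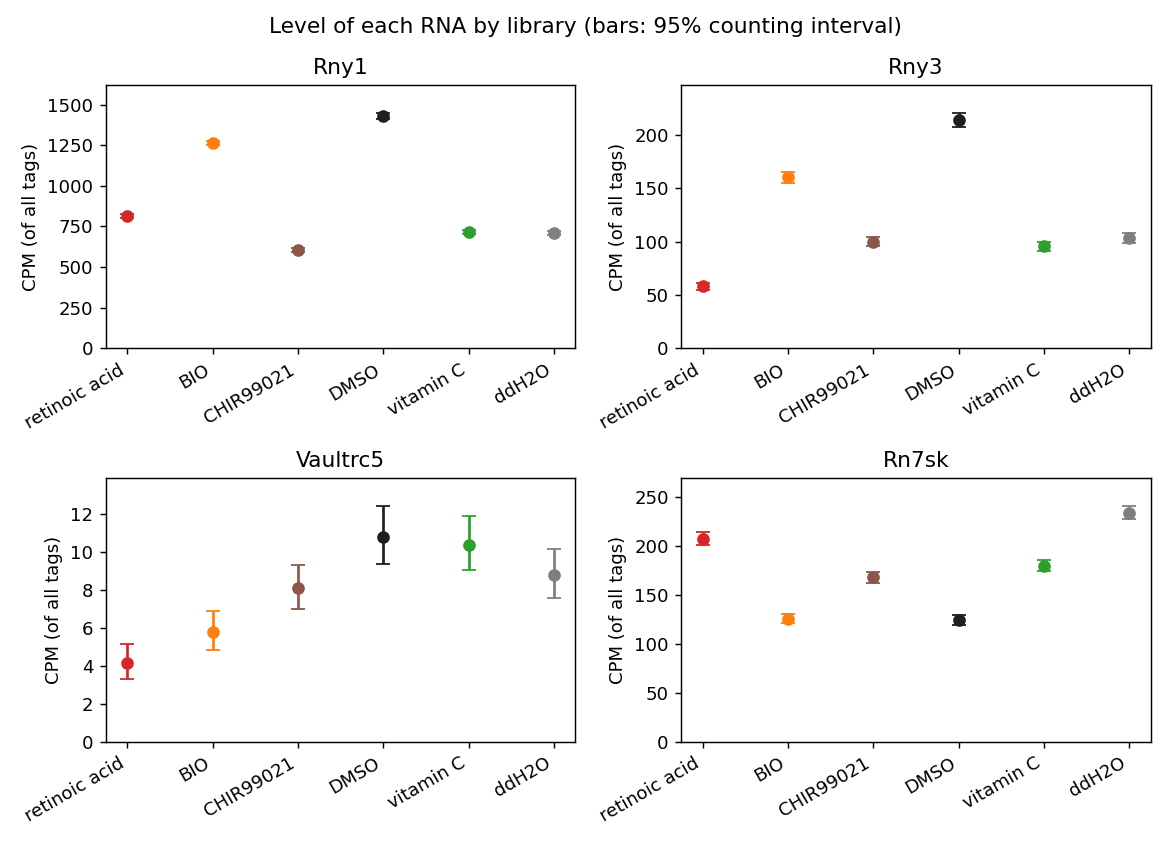
Level of each RNA in the 6 libraries, in CPM on linear axes, with 1 point per library and bars for the 95% counting interval. Rny1 and Rny3 were highest in DMSO and BIO, at 1431 and 1264 CPM for Rny1, whereas Rn7sk was lowest in these libraries.

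Rny1 stood at 813 CPM after retinoic acid, 1264 after BIO, 606 after CHIR99021 and 1431 in DMSO. It stood at 714 after vitamin C and 709 in ddH2O. In order of level the libraries ran DMSO, BIO, retinoic acid, vitamin C, ddH2O and CHIR99021, and vitamin C and ddH2O were the only neighbours not apart beyond counting error. A ratio was called when it was at least 2-fold and its interval excluded 1. By this rule Rny1 was lower after CHIR99021 than in DMSO, 2.36-fold (2.31 to 2.41). It was 2.09-fold lower after CHIR99021 than after BIO (2.05 to 2.13), which were given at different doses. The vehicles lay nearly as far apart, with Rny1 2.02-fold lower in ddH2O than in DMSO (1.98 to 2.06). After retinoic acid it was 1.76-fold lower than in DMSO (1.73 to 1.79), under the rule, but 1.72-fold higher per microRNA tag, and its level was above that of ddH2O. Per microRNA tag the 3 calls on Rny1 were lost.

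As background, the same rule was applied to all annotated small noncoding RNA genes with at least 5 CPM in the higher library. It called 35.3% of 580 genes lower after retinoic acid, 5.77% of 572 after BIO and 33.6% of 569 after CHIR99021, each against DMSO. It called 3.16% of 570 lower after vitamin C against ddH2O, 17.3% of 542 lower in CHIR99021 against BIO, and 4.7% of 575 lower in ddH2O against DMSO. Of the 4 RNAs, 2 were lower after retinoic acid (Rny3 and Vaultrc5), 2 after CHIR99021 (Rny1 and Rny3) and 2 in ddH2O (Rny1 and Rny3), each against DMSO, 1 in CHIR99021 against BIO, and 0 in the other comparisons. None was called higher, where the background was 13.6%, 0.874%, 0.703%, 4.74%, 1.11% and 1.91% in the same order of comparisons. The median log2 ratio of all genes was -0.50 for retinoic acid, -0.27 for BIO and -0.64 for CHIR99021, so the level in CPM lay below DMSO for most noncoding RNA in these libraries.

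The tags of Rny1 came almost wholly from its ends. Over the 6 libraries, 45.2% of 114406 Rny1 tags started within 2 bases of the first base, and 99.7% of these started at base 1 itself. The other fragments came from the 3′ arm, with starts at bases 83 and 84 and last bases at 105 and 106 or at 109 and 110. By a window of 5 bases at the 3′ end, 21.01% of Rny1 tags were 3′ fragments and 33.8% internal, but the internal ones are nearly all 3′ arm fragments that stop at base 105 or 106. The 3′ arm was therefore taken as tags that start at bases 80 to 90 and end at base 100 or later, a choice made after the positions were seen.

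**Figure D2:**
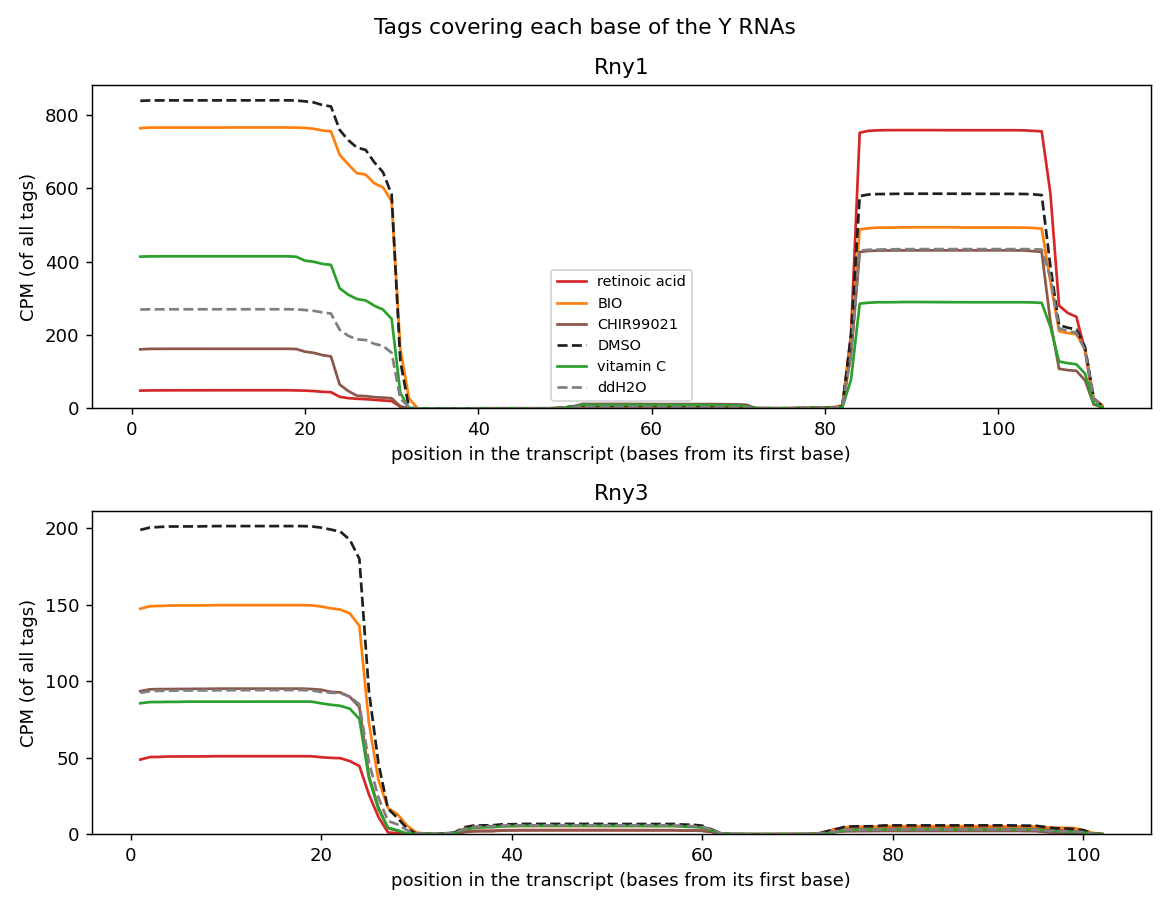
Level in CPM of the tags that cover each base of Rny1 (top) and Rny3 (bottom), counted from the first base of the transcript, 1 line per library. Rny1 has a plateau at each end and Rny3 at its 5′ end alone; at the Rny1 5′ plateau DMSO reaches 839 and retinoic acid is lowest, while at the 3′ arm retinoic acid is highest, at 758.

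The 2 arms of the Rny1 stem did not move together. The 5′ fragments stood at 49.3 CPM after retinoic acid, 765 after BIO, 162 after CHIR99021 and 839 in DMSO, and at 414 after vitamin C and 270.0 in ddH2O. The 3′ arm stood at 757 after retinoic acid, 491 after BIO, 430 after CHIR99021 and 583 in DMSO, and at 289 after vitamin C and 432 in ddH2O. In CPM the retinoic acid library thus had the lowest level of the 5′ fragments and the highest level of the 3′ arm. The 5′ fragments were 17.0-fold lower after retinoic acid than in DMSO (15.9 to 18.2), and the 3′ arm was 1.30-fold higher (1.27 to 1.33). The 5′ fragments were 5.17-fold lower after CHIR99021 than in DMSO (4.99 to 5.35), and 3.11-fold lower in ddH2O than in DMSO (3.01 to 3.20).

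The libraries also differed in tag length. Retinoic acid was the lowest library both in tags of 29 to 31 bases, at 0.564%, and in these 5′ fragments. The other libraries came in a different order for tag length than for the 5′ fragments. The part of tag length in these values was not tested. With length standardisation, in which the share of the tags of each length is weighted by the mean length profile of the 6 libraries, the 5′ fragments were 3.54-fold lower after retinoic acid than in DMSO, and per microRNA tag 5.61-fold lower. Length-standardised, they were 5.45-fold lower after CHIR99021 and 6.64-fold lower in ddH2O, each against DMSO. On this scale, which carries no interval and so no call, they also differed by at least 2-fold in a further pair of comparisons. They were 3.35-fold lower after BIO than in DMSO, where CPM gave 1.10-fold, and 8.20-fold higher after vitamin C than in ddH2O, where CPM gave 1.53-fold. The call for CHIR99021 against BIO, 4.71-fold lower in CPM, was lost at 1.63-fold. The 3′ arm was 1.61-fold higher after retinoic acid than in DMSO when length-standardised and 3.94-fold higher per microRNA tag.

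A ratio of the arms within a library does not depend on the total it is scaled to. All lengths together, the retinoic acid library had 0.0651 tags from the 5′ end for each tag from the 3′ arm (0.0609 to 0.0695). The ratio was 1.56 after BIO, 0.378 after CHIR99021 and 1.44 in DMSO, and 1.43 after vitamin C and 0.625 in ddH2O. Among tags of 18 to 26 bases alone it was 0.0414 after retinoic acid (0.0377 to 0.0454), 0.405 after BIO, 0.372 after CHIR99021 and 0.334 in DMSO (0.319 to 0.349), and 0.629 after vitamin C and 0.318 in ddH2O. In this length range the retinoic acid library lay apart from all others, and CHIR99021, DMSO, BIO and ddH2O lay between 0.318 and 0.405.

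**Figure D3:**
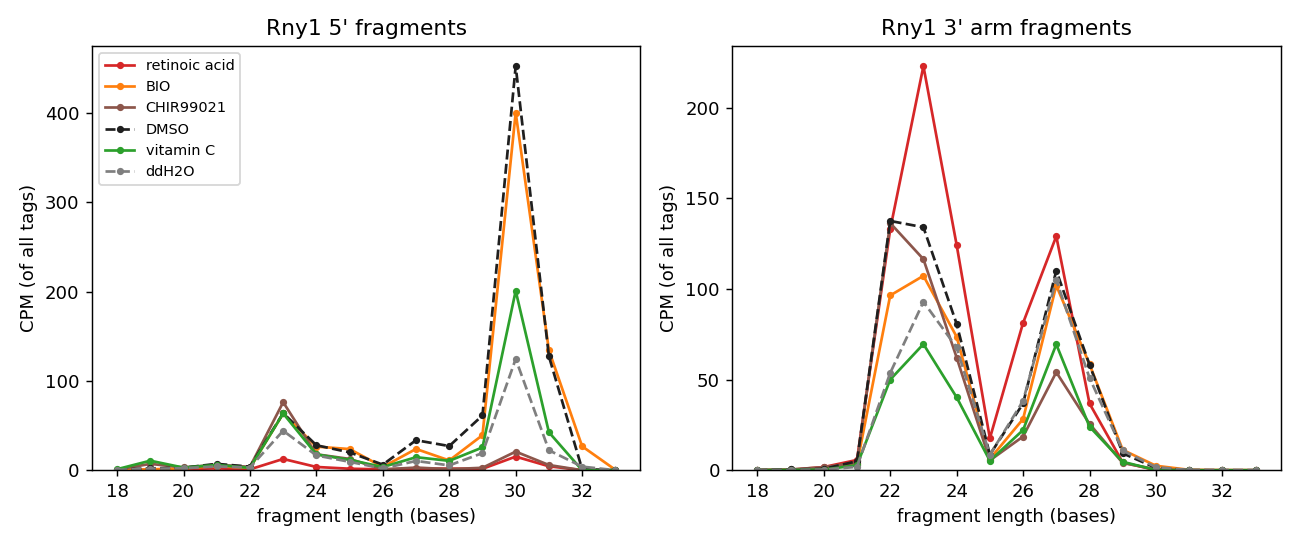
Level in CPM against fragment length in bases for Rny1 5′ fragments (left) and 3′ arm fragments (right), 1 line per library. The 5′ fragments form groups around 23 and 30 bases. Both are low after retinoic acid (12.6 at 23 bases and 15.3 at 30), and after CHIR99021 the 30-base group alone (76.2 and 20.9). The 3′ arm has peaks near 23 and 27 bases in all 6 libraries.

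The 5′ fragments of Rny1 had 2 length groups, with most tags at 23 or at 30 bases. Those of 27 bases or longer stood at 24.98 CPM after retinoic acid, 637 after BIO, 33.6 after CHIR99021 and 704 in DMSO, and at 294 after vitamin C and 186 in ddH2O. Those of 18 to 26 bases stood at 24.3 after retinoic acid, 128 after BIO, 129 after CHIR99021 and 135 in DMSO, and at 119.9 after vitamin C and 83.8 in ddH2O. In CPM, CHIR99021 was thus low for the long 5′ fragments alone, and retinoic acid for both. The long ones were 20.9-fold lower after CHIR99021 than in DMSO (19.5 to 22.5), while the ratio of the short ones was 0.954 (0.905 to 1.01). After retinoic acid the long ones were 28.2-fold lower than in DMSO (25.7 to 30.9) and the short ones 5.55-fold (5.03 to 6.13). Length-standardised, the long ones were 3.40-fold lower after retinoic acid and 11.5-fold lower after CHIR99021, each against DMSO, and the short ones were 5.53-fold lower after retinoic acid. Per microRNA tag the short ones were 1.83-fold lower after retinoic acid, under the 2-fold rule. Long over short came to 0.261 after CHIR99021 and 4.96 after BIO, which were given at 3 µM and 1 µM, and to 5.22 in DMSO, 1.03 after retinoic acid, 2.45 after vitamin C and 2.22 in ddH2O.

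The fragment of bases 1 to 30 was the most abundant Rny1 tag after BIO and vitamin C and in both vehicles. It was counted 296 times after retinoic acid, 8912 times after BIO, 494 times after CHIR99021 and 8541 times in DMSO, and 4140 times after vitamin C and 2536 times in ddH2O. This is 15.3, 400.4, 20.8 and 453 CPM in the first 4 of these libraries, and 201 after vitamin C and 125 in ddH2O. The libraries held very different numbers of tags of that length, 15442 after retinoic acid and 749904 after BIO at the extremes. As a share of all tags of 30 bases, the fragment held 1.92% after retinoic acid (1.71 to 2.15), 1.19% after BIO, 0.426% after CHIR99021 (0.390 to 0.466) and 5.46% in DMSO (5.35 to 5.57), and 8.46% after vitamin C (8.21 to 8.71) and 0.518% in ddH2O (0.499 to 0.539). Set against tags of its own length, the fragment was highest after vitamin C and in DMSO and lowest after CHIR99021 and in ddH2O.

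**Figure D4:**
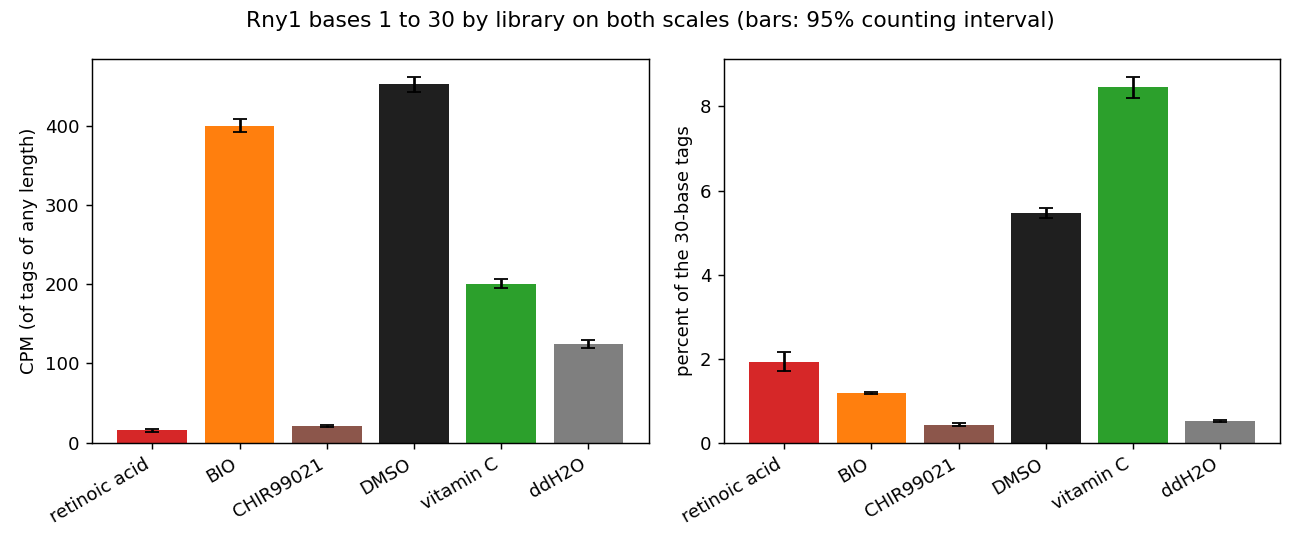
The Rny1 fragment of bases 1 to 30 in the 6 libraries, in CPM of tags of any length (left) and as percent of the tags of 30 bases (right), with 95% counting intervals; bars start at 0. BIO is close to DMSO on the left, at 400.4 and 453, and below it on the right, at 1.19% and 5.46%, while vitamin C is the highest bar on the right, at 8.46%.

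The 2 scales give different sizes of difference, and in 2 comparisons another call. After CHIR99021 the 1 to 30 fragment was 21.8-fold lower than in DMSO in CPM (19.9 to 23.9) and 12.8-fold lower per tag of its length (11.7 to 14.0). After retinoic acid it was 29.6-fold lower on the first scale (26.4 to 33.4) and 2.85-fold on the second (2.54 to 3.21). After BIO the ratio to DMSO was 0.885 on the first scale, and the fragment was 4.59-fold lower on the second (4.46 to 4.73). After vitamin C it was 1.61-fold higher than in ddH2O on the first scale (1.54 to 1.70) and 16.3-fold higher on the second (15.5 to 17.1). In CHIR99021 against BIO it was 19.3-fold lower on the first scale and 2.79-fold lower on the second (2.55 to 3.06). Between the vehicles it was 3.63-fold lower in ddH2O than in DMSO on the first scale and 10.5-fold lower on the second (10.1 to 11.0). The part of the libraries' tag lengths in these differences was not tested further.

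The same ratio was taken for every distinct tag of 29 to 31 bases with at least 20 CPM in the higher library, many of which overlap in sequence and so share a source. Of 152 such tags, 93.4% were called lower after retinoic acid than in DMSO, and the Rny1 fragment, with 61 tags below it and 90 above, lay within them. Of 161 tags compared between CHIR99021 and DMSO, 46.6% were called lower, at a median ratio of 0.570, and 8 had a lower ratio than the Rny1 fragment. Of 293 tags compared between vitamin C and ddH2O, 82.6% were called lower and 0.341% higher, at a median ratio of 0.120, and 4 had a higher ratio than the Rny1 fragment at 1.61. Of 299 tags compared between BIO and DMSO, 56.9% were called higher, 2.68% lower, and 22 lay below the Rny1 fragment. Of 295 tags compared between CHIR99021 and BIO, 80.3% were called lower and 96 lay below it. Of 300 tags compared between ddH2O and DMSO, 57.7% were called higher, 4.67% lower, and 5 lay below it. Each set holds 3 tags of the 4 RNAs.

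The fragment of bases 1 to 23 had another pattern. It stood at 12.6 CPM after retinoic acid, 63.6 after BIO, 76.2 after CHIR99021 and 63.8 in DMSO, and at 63.6 after vitamin C and 44.2 in ddH2O. It was 5.07-fold lower after retinoic acid than in DMSO (4.41 to 5.84) and 4.76-fold lower per tag of 23 bases (4.15 to 5.49). The other 5 libraries lay within 44.2 to 76.2 CPM. After CHIR99021 it was the second most abundant Rny1 tag, where the 1 to 30 fragment was the seventh.

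In the 3′ arm the fragment of bases 84 to 106 was highest after retinoic acid. It stood at 190.1 CPM after retinoic acid, 61.0 after BIO, 66.3 after CHIR99021 and 81.0 in DMSO, and at 55.7 after vitamin C and 72.2 in ddH2O. It was 2.35-fold higher after retinoic acid than in DMSO (2.21 to 2.49), and 2.497-fold higher per tag of 23 bases (2.35 to 2.65). The shorter form, bases 84 to 105, stood at 131.7 after retinoic acid, 94.7 after BIO, 134.8 after CHIR99021 and 135 in DMSO, and at 48.8 after vitamin C and 52.3 in ddH2O. It was thus lower in the ddH2O and vitamin C libraries than in the rest, and 2.59-fold lower in ddH2O than in DMSO (2.41 to 2.78). This form also occurs in the annotated gene Gm24372, which shares 15.5% of the Rny1 tags, so its source cannot be assigned. The share of Rny1 tags that also match another annotated gene was 21.4% after retinoic acid, 11.6% after BIO, 32.2% after CHIR99021 and 13.8% in DMSO, and 9.88% after vitamin C and 10.9% in ddH2O. The fragment of bases 84 to 110, which ends within 2 bases of the annotated end, was 2.11-fold lower after CHIR99021 than in DMSO (1.96 to 2.28), at 45.9 against 97.1 CPM. In the other libraries it lay between 64.5, after vitamin C, and 115.6, after retinoic acid. The Rny1 3′ fragments of the 5-base window together were 2.10-fold lower after CHIR99021 than in DMSO. Per microRNA tag they were 1.10-fold lower, under the 2-fold rule.

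Rny3 stood at 58.1 CPM after retinoic acid, 160.4 after BIO, 99.96 after CHIR99021 and 214 in DMSO. It stood at 95.5 after vitamin C and 103 in ddH2O. Retinoic acid was the lowest library and DMSO the highest. Neighbours among ddH2O, CHIR99021 and vitamin C, in this order, were not apart beyond counting error. Vitamin C and ddH2O, not neighbours, were apart at a ratio of 0.925 (0.869 to 0.984). Rny3 was 3.68-fold lower after retinoic acid than in DMSO (3.45 to 3.94) and 2.14-fold lower after CHIR99021 (2.03 to 2.25). It was also 2.07-fold lower in ddH2O than in DMSO (1.97 to 2.19), so the vehicles differed by about as much as CHIR99021 and DMSO. Set against ddH2O in place of DMSO, the log2 ratio of retinoic acid was -0.83 and that of CHIR99021 -0.046, both under 2-fold. Per microRNA tag they were -0.28 and -0.17 against DMSO, also under it.

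Unlike Rny1, Rny3 gave fragments of its 5′ end nearly alone. Of 15176 tags, 92.4% were 5′ fragments (92.0 to 92.9) and 98.7% of those started at base 1, while 2.17% were 3′ fragments and 5.38% internal. The 3 leading tags were bases 1 to 24, 1 to 25 and 1 to 26. The 1 to 24 fragment stood at 17.3 CPM after retinoic acid, 62.4 after BIO, 44.4 after CHIR99021 and 85.4 in DMSO, and at 38.1 after vitamin C and 37.1 in ddH2O. It was 4.93-fold lower after retinoic acid than in DMSO (4.38 to 5.56), and 5.34-fold lower per tag of 24 bases (4.74 to 6.02). The retinoic acid library was below all 5 others for this fragment in CPM and per tag of 24 bases. Per microRNA tag, the Rny3 5′ fragments together were 1.31-fold lower after retinoic acid than in DMSO, under the 2-fold rule.

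Long 5′ fragments were a minor part of Rny3. At 27 bases or longer they stood at 0.929 CPM after retinoic acid, 16.7 after BIO, 3.70 after CHIR99021 and 16.3 in DMSO, and at 4.08 after vitamin C and 8.35 in ddH2O. They were 17.5-fold lower after retinoic acid than in DMSO (10.9 to 29.9) and 4.39-fold lower after CHIR99021 (3.46 to 5.63). They were 2.05-fold lower after vitamin C than in ddH2O (1.57 to 2.69), the opposite direction to the long Rny1 fragments, which were 1.58-fold higher (1.52 to 1.65). Length-standardised, the long Rny3 fragments were 1.20-fold lower after vitamin C, which is no call, and the long Rny1 fragments 13.9-fold higher. The long Rny3 fragments were 9.23-fold lower after retinoic acid than in DMSO on that scale. With tags of 18 to 26 bases, Rny3 5′ fragments over the Rny1 3′ arm came to 0.0845 after retinoic acid (0.0790 to 0.0903), 0.419 after BIO, 0.264 after CHIR99021 and 0.457 in DMSO, and 0.432 after vitamin C and 0.324 in ddH2O. The 5′ fragments of both Y RNAs were thus lowest after retinoic acid relative to the Rny1 3′ arm.

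Vaultrc5 has 143 bases at chr18:36801866-36802008 (GRCm38, plus strand). It was the least abundant of the 4 RNAs, with 80 tags after retinoic acid, 129 after BIO, 192 after CHIR99021 and 204 in DMSO, and 214 after vitamin C and 179 in ddH2O. This is 4.13, 5.80, 8.08 and 10.8 CPM in the first 4 libraries, and 10.4 and 8.79 in the last pair. Neighbours among DMSO, vitamin C, ddH2O and CHIR99021, in this order, were not apart beyond counting error, and BIO and retinoic acid lay below them. Beyond neighbours, the ratio to DMSO was 0.748 for CHIR99021 (0.611 to 0.915) and 0.813 for ddH2O (0.662 to 0.999). Vaultrc5 was 2.62-fold lower after retinoic acid than in DMSO (2.01 to 3.43), but 1.16-fold higher per microRNA tag. For BIO the ratio to DMSO was 0.536 (0.427 to 0.672), under the rule for a call. Of 998 tags, 33.3% were 3′ fragments and 0.601% 5′ fragments, and the rest lay inside the transcript.

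Within Vaultrc5, the starts used most lay around base 10 and, near the 3′ end, around base 117, and each was taken with 2 bases on either side. The first group stood at 1.76 CPM after retinoic acid, 1.53 after BIO, 1.98 after CHIR99021 and 2.86 in DMSO, and at 3.30 after vitamin C and 2.60 in ddH2O. The group near the 3′ end stood at 0.981 after retinoic acid, 2.25 after BIO, 2.19 after CHIR99021 and 3.97 in DMSO, and at 2.38 after vitamin C and 3.83 in ddH2O. Retinoic acid was lowest in the 3′ group, 4.05-fold below DMSO (2.42 to 7.10), while the 5′ group had a ratio of 0.613 (0.387 to 0.959). These groups rest on 19 to 78 tags a library and were chosen after the positions were seen.

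**Figure D5:**
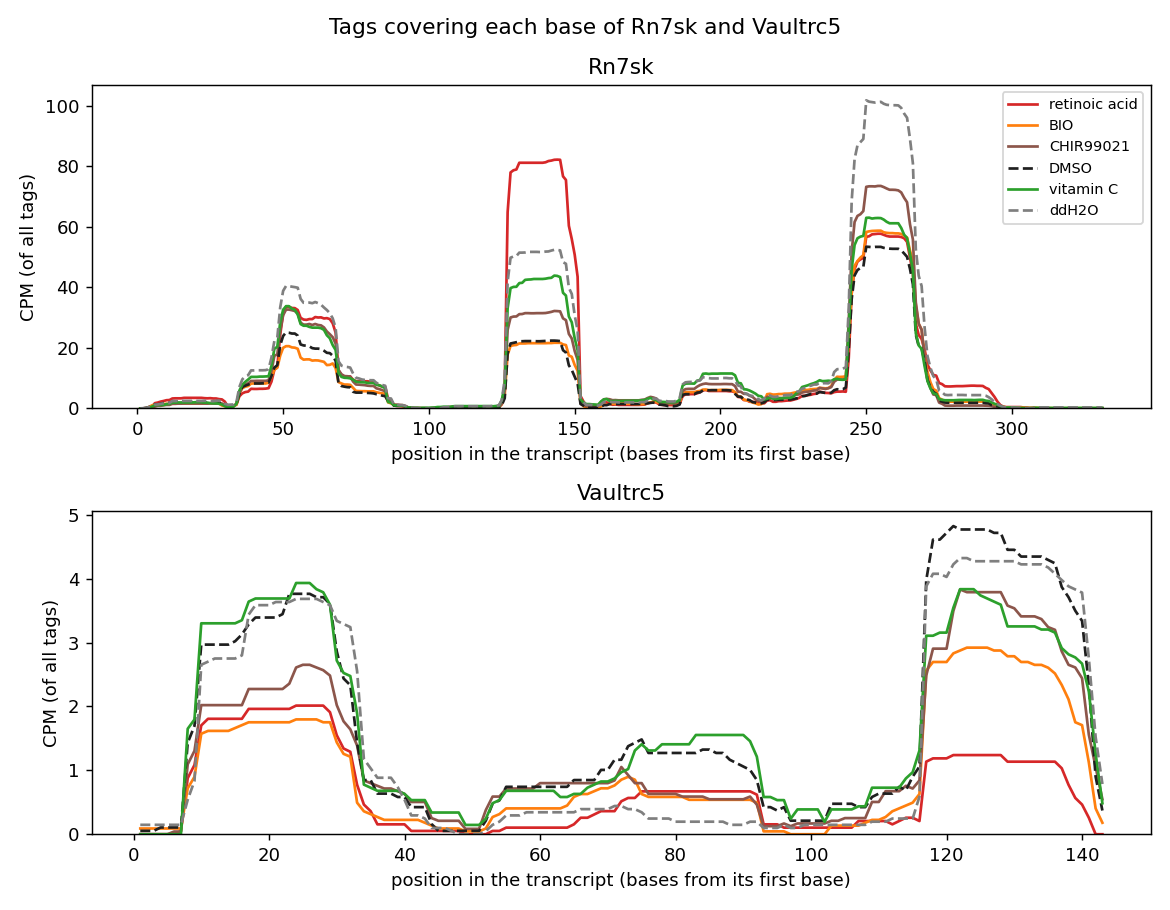
Level in CPM of the tags that cover each base of Rn7sk (top) and Vaultrc5 (bottom), counted from the first base, 1 line per library. Rn7sk has 3 main peaks and no plateau at either end, and retinoic acid is highest at the middle peak, at 82.2, while ddH2O is highest at the peak nearest the 3′ end, at 101.8.

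Rn7sk went another way than the Y RNAs. It stood at 207 CPM after retinoic acid, 125 after BIO, 167 after CHIR99021 and 124 in DMSO, and at 179.6 after vitamin C and 233 in ddH2O. No comparison was called. Against DMSO, the ratio of retinoic acid was 1.67 (1.59 to 1.76), that of BIO 1.01 (0.959 to 1.07) and that of CHIR99021 1.35 (1.29 to 1.43). The ratio of ddH2O to DMSO was larger than these, at 1.89 (1.79 to 1.98). Set against ddH2O in place of DMSO, the log2 ratio turned to -0.17 for retinoic acid and -0.48 for CHIR99021. Vitamin C was 1.30-fold lower than ddH2O (1.24 to 1.36). Only BIO and DMSO, at the low end, were not apart beyond counting error. TMM scaling was computed over 1207 of the noncoding genes. With it the log2 ratio of Rn7sk to DMSO was 1.17 for retinoic acid and 1.01 for CHIR99021, past the 2-fold rule.

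Nearly all Rn7sk tags, 99.9% of 21569, lay inside the transcript. Its 5′ end gave 0.0695% and its 3′ end, where Larp7 binds, 0.0742%. Many of the tags start at 3 sites, shown here with the leading tag of each site in capitals within its neighbourhood on GRCm38, minus strand.
Rn7sk site 1, chr9:78175556-78175595: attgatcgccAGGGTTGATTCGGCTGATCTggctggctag
Rn7sk site 2, chr9:78175473-78175517: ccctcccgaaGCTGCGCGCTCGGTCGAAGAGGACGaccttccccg
Rn7sk site 3, chr9:78175358-78175399: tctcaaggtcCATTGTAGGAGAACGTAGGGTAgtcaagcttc
A site holds the tags that start within 2 bases of its most used start, which is base 49, 127 or 245. The number of sites was set at 3, and they were chosen after the positions were seen. By library, site 1 held 8.09 to 12.2% of the Rn7sk tags, site 2 16.5 to 37.9% and site 3 21.7 to 34.2%. The rest started elsewhere. Of all Rn7sk tags, 57.2% also match other annotated genes, 75 in all, most of them unnamed 7SK-like copies such as Gm24447, and their source cannot be assigned. This share was highest after retinoic acid, at 67.6%, and 50.3 to 61.2% in the other libraries.

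Site 2 separated the libraries most. It stood at 78.5 CPM after retinoic acid, 20.7 after BIO, 30.3 after CHIR99021 and 21.5 in DMSO, and at 40.00 after vitamin C and 49.7 in ddH2O. It was 3.65-fold higher after retinoic acid than in DMSO (3.27 to 4.08) and 2.31-fold higher in ddH2O than in DMSO (2.06 to 2.60). Site 3 stood at 44.9 after retinoic acid, 42.3 after BIO, 57.2 after CHIR99021 and 41.4 in DMSO, and at 49.3 after vitamin C and 77.6 in ddH2O. Its ratio of retinoic acid to DMSO was 1.08 (0.983 to 1.20). Site 2 over site 3 within a library came to 1.75 after retinoic acid (1.61 to 1.90), 0.489 after BIO, 0.530 after CHIR99021 and 0.519 in DMSO (0.459 to 0.586), and 0.812 after vitamin C and 0.641 in ddH2O. Retinoic acid was the 1 library with more tags from site 2 than from site 3.

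At site 1 the levels were 24.9 CPM after retinoic acid, 10.2 after BIO, 20.5 after CHIR99021 and 14.4 in DMSO, and 19.9 after vitamin C and 24.2 in ddH2O. Of the 6 comparisons, CHIR99021 against BIO was called there, 2.02-fold higher (1.72 to 2.37). The leading tag of site 2, bases 127 to 151, made up 11.7% of the Rn7sk tags after retinoic acid and 3.04 to 5.60% in the other libraries. It was 6.45-fold higher after retinoic acid than in DMSO (5.01 to 8.40), 2.33-fold higher after CHIR99021 (1.77 to 3.09) and 3.47-fold higher in ddH2O (2.66 to 4.58). Per tag of 25 bases it was 6.33-fold higher after retinoic acid (4.92 to 8.25). This tag matches 4 further annotated genes.

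As a reference for other RNAs of small ribonucleoproteins, a list of 26 genes was counted in the same way, and 19 of 24 with tags were abundant enough to compare. Some of its genes are copies with the same counted tags and so the same values, such as Rn7s1 with Rn7s2, and Rnu3b1 with Rnu3b3 and Rnu3b4, and are not separate measurements. After retinoic acid 1 was higher and 1 lower than in DMSO, where the rule called 13.6% and 35.3% of all genes. The higher one was Rn5s, the 5S ribosomal RNA, also a polymerase III product, at 72.1 against 29.3 CPM, 2.46-fold (2.23 to 2.72). The lower one was Rpph1, the RNA of ribonuclease P, at 14.9 against 33.8, 2.26-fold (1.97 to 2.61). BIO and CHIR99021 had 0 called against DMSO, where 5.77% and 33.6% of all genes were called lower. Rnu73b, annotated as a small nuclear RNA, was 6.56-fold lower after vitamin C than in ddH2O (4.63 to 9.55) and 2.12-fold lower after CHIR99021 than after BIO (1.72 to 2.62). Rnu3a, the U3 RNA of ribosomal RNA processing, was 2.30-fold lower in ddH2O than in DMSO (2.27 to 2.33). The median log2 ratio of the list was -0.01 for retinoic acid, -0.12 for BIO and -0.30 for CHIR99021, beside -0.50, -0.27 and -0.64 for all genes.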

How the data were processed

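The deposited files list each distinct tag of a library with its raw count and its length in bases, per the file contents, and the authors' trimming and filters are not given in the sources used here. Per the labels, 1 µg of TRIzol-extracted RNA went into a TruSeq RNA kit. The submitters' processing notes name mm9, and the BIO label says that its raw data were lost. Tags of 18 to 44 bases were matched exactly to GENCODE M21 transcripts (GRCm38), coordinates are from that build, and no genome was used. A tag of a member counts in full. For the 3398 background genes it was split evenly among the genes matched. Folds were predicted with RNAfold 2.7.2. Counts were divided by all tags of a library, and the intervals came from scipy 1.17.1. Alternatives were TMM (edgeR 4.0.16) and median-of-ratios (DESeq2 1.42.0) scaling, microRNA tags as the total, other length limits, windows and vehicles, and untemplated 3′ ends of up to 3 bases. Length standardisation, tags of 18 to 26 bases and tags of no other gene were added after the data were seen. Named fragments were those leading an end class or holding 10% of a member in a library. The members and lists were chosen with earlier results of these data known. In simulated data 0 of 387 member tags were misplaced, and for retinoic acid against DMSO, over 580 genes with counting error alone, 97% of 2.5-fold differences were recovered and 0 unchanged genes called. Vaultrc5 sequence is not printed.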

Additional observations from a re-analysis of the deposited data

How the results depend on the processing

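No paired analysis was possible because each group had 1 library. The alternative of tags with 1 place in the genome was not run, as no genome was used; tags of no other annotated gene were counted in its place. Log2 ratios of the 4 RNAs moved as follows. For Rny1, CHIR99021 against DMSO (-1.24) was under 2-fold per microRNA tag (-0.31), with TMM (-0.67) or median-of-ratios scaling (-0.64), without the most abundant tag (-0.74), against ddH2O (-0.23) and with tags of 18 to 26 bases (-0.20). CHIR99021 against BIO (-1.06) was under it per microRNA tag (-0.41), with TMM (-0.68) or median-of-ratios scaling (-0.66), with tags of 20 to 44 bases (-0.96), with untemplated ends (-0.99), without the most abundant tag (-0.56), with 18 to 26 bases (-0.065) and length-standardised (-0.23). DdH2O against DMSO (-1.01) was under it per microRNA tag (-0.60), with median-of-ratios scaling (-0.995), untemplated ends (-0.93), without the most abundant tag (-0.74), with tags of no other gene (-0.97) and with 18 to 26 bases (-0.56). Length-standardised, Rny1 passed 2-fold for BIO against DMSO (-1.14) and for vitamin C against ddH2O (1.65). Set against DMSO in place of ddH2O, vitamin C turned to -1.003 in CPM. Retinoic acid against DMSO (-0.82), no call, turned to 0.78 per microRNA tag, to 0.20 against ddH2O and to 0.068 with tags of 18 to 26 bases. For Rny3, retinoic acid was under 2-fold per microRNA tag (-0.28) and against ddH2O (-0.83). CHIR99021 was under it per microRNA tag (-0.17), with TMM (-0.52) or median-of-ratios scaling (-0.49) and against ddH2O (-0.046), and vitamin C passed it against DMSO (-1.16). DdH2O against DMSO was under it per microRNA tag (-0.64), without the most abundant tag (-0.96) and length-standardised (-0.996). For Vaultrc5, retinoic acid turned to 0.21 per microRNA tag and was at -0.96 with TMM, and CHIR99021 against BIO reached 1.13 per microRNA tag. For Rn7sk, retinoic acid passed 2-fold per microRNA tag (2.34), with TMM (1.17) and with median-of-ratios scaling (1.07), and CHIR99021 did so in the same order (1.36, 1.01 and 1.04). CHIR99021 against BIO (1.07) and ddH2O against DMSO (1.33) passed it per microRNA tag. Among fragments, long Rny1 5′ fragments turned to 1.77 for BIO against ddH2O and to -1.26 for vitamin C against DMSO, and short Rny3 5′ fragments to 0.094 for CHIR99021 against ddH2O. Length-standardised, long Rny1 5′ fragments passed 2-fold for BIO against DMSO (-2.19) and reached 3.80 for vitamin C against ddH2O, and the call on long Rny3 5′ fragments for vitamin C was lost (-0.26). Per microRNA tag the calls on short 5′ fragments after retinoic acid were lost for Rny1 (-0.87) and Rny3 (-0.29), and the Rny1 3′ arm passed 2-fold (1.98). The cause of these changes was not tested.

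With untemplated ends counted, Rny1 stood at 932 CPM after retinoic acid, 1545 after BIO, 778 after CHIR99021, 1686 in DMSO, 822 after vitamin C and 883 in ddH2O, Rny3 at 62.0, 173, 106, 229, 102 and 111, and Vaultrc5 at 10.3 in ddH2O. With end windows of 0 and 2 bases the 3′ share was 14.7% for Rny1, 1.32% for Rny3 and 21.3% for Vaultrc5, and the 5′ share 91.2% for Rny3 and 0.00464% for Rn7sk. With windows of 5 and 10 bases the 3′ share was 53.9% for Rny1, 3.24% for Rny3 and 39.8% for Vaultrc5, and the 5′ share 0.700% for Rn7sk. Background genes called with no minimum level, and with one of 50 CPM, were 579 and 164 (284 as reported) for retinoic acid, 97 and 11 (38) for BIO, 363 and 75 (195) for CHIR99021, 140 and 14 (45) for vitamin C, 222 and 34 (100) for CHIR99021 against BIO, and 249 and 21 (38) for ddH2O against DMSO. Scaling moved the split of these calls. For retinoic acid 79 genes were higher and 205 lower in CPM, 100 and 133 with TMM, 96 and 147 with median-of-ratios scaling, and 310 and 15 per microRNA tag. For CHIR99021 it was 4 and 191, 18 and 82, 21 and 79, and 63 and 39 in the same order. For BIO it was 5 and 33, 10 and 9, 10 and 9, and 14 and 5. For CHIR99021 against BIO it was 6 and 94, 14 and 41, 15 and 38, and 44 and 21. For vitamin C it was 27 and 18, 29 and 17, 27 and 18, and 16 and 23. For ddH2O against DMSO it was 11 and 27, 10 and 32, 12 and 25, and 31 and 4.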

Other observations

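Untemplated bases at the 3′ end were more frequent on the 3′ arm of Rny1 than on its 5′ fragments. Counting tags that match Rny1 up to 1 to 3 extra bases, 26.6% of the 3′ arm tags over the 6 libraries carried such a tail, and 81.2% of these tails were A only. Among Rny1 5′ fragments 1.63% carried a tail (1.52 to 1.74). By library the share of tailed 3′ arm tags was 13.5% after retinoic acid (13.0 to 14.0), 35.2% after BIO, 28.0% after CHIR99021 and 29.3% in DMSO (28.6 to 29.99), and 26.3% after vitamin C and 28.2% in ddH2O. Retinoic acid was the lowest of the 6. The share tailed was 53.3% for last templated base 104, 17.8% for 105, 11.5% for 106, 30.2% for 107, 56.3% for 109 and 34.9% for 110. A base that equals the next base of the transcript is read as templated and cannot count as a tail. After bases 109 and 110 the transcript goes on with T, so an added T is not seen there, and the A-only shares of 95.7% and 95.8% are partly set by this. After base 104 the next base is A, and 0 of the tails counted there were A only. Rny3 3′ fragments were tailed in 49.7% of 656 tags (45.8 to 53.6), 89.0% of them with A only beside a like run of T at the end of the transcript, and Rny3 5′ fragments in 2.56%. A tail of A cannot be told apart from a sequencing or adapter base with these files.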
